A study of Mus musculus with 18 samples.

Results

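The enzymes described here are 8 that carry one-carbon units on folate in mouse liver: Shmt1, Shmt2, Mthfd1, Mthfd1l, Mthfd2, Tyms, Aldh1l1 and Ftcd. They were chosen by name, and every probe naming one of them through its RefSeq accession was taken, which gave 10 probes for the 8 genes among 39429 probes and 21153 named genes on the array. Shmt1 and Mthfd1l have 2 probes each and the other genes have 1. All 10 probes passed the filter on dim probes, as did 19598 genes in all, and none of their spots was marked as an outlier.

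Total liver RNA came from 18 individual C57BL/6 males, 1 one-colour Agilent array each, in 4 groups. LFD (n = 4) and HFD (n = 4) were untreated mice that ate, starting at an age of 6 weeks, a diet with a fat share of 10 or 60% of the energy. LFD MTX50 (n = 5) and HFD MTX50 (n = 5) received the same diets and, after 10 weeks of feeding, methotrexate at 50 mg/kg intraperitoneally in 5 weekly doses, and their livers were taken 1 week after the last dose. Nothing in the sources used here names a sham injection of the untreated groups. The arrays addressed how chemotherapy acts on the fatty liver of obese mice, and the comparisons are diet alone, methotrexate within each diet, diet under methotrexate, and the difference between the methotrexate effects on the 2 diets.

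Folates hand single carbons from donors to products. Serine hydroxymethyltransferase moves a carbon from serine to tetrahydrofolate, in the cytosol (Shmt1) or in mitochondria (Shmt2). The Mthfd proteins oxidise that unit and pass it on as formate, which leaves the mitochondria for the cytosol. The unit then serves thymidylate synthesis, purine synthesis or methionine, or it is released as carbon dioxide by Aldh1l1. Liver is rich in Aldh1l1 and in Ftcd, which ties histidine breakdown to the folate pool. Methotrexate is a folate analogue that deprives cells of reduced folates, and its polyglutamates also bind Tyms.

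Promoter sequences stand here for Mthfd2, Mthfd1l and Shmt1, the members called in more than 1 comparison, and for Asns, the asparagine synthetase gene that rose beside Mthfd2 in the treated HFD livers. RefSeq promoters (GRCm38.p6) were found for 8 of 8 members. The 250 bases before each start follow, 5′ to 3′ on the gene's strand. Capitals mark every match, on either strand, to TGATGNAA or CCAAT in Mthfd2, to TGATGNAA in Asns, and to GGGCGG in Mthfd1l and Shmt1.
Mthfd2, chr6:83317605-83317854, minus strand: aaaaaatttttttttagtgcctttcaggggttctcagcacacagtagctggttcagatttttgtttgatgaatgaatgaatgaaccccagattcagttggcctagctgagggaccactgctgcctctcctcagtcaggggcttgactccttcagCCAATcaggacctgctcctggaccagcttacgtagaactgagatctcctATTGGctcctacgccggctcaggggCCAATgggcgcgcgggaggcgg
Asns, chr6:7693210-7693459, minus strand: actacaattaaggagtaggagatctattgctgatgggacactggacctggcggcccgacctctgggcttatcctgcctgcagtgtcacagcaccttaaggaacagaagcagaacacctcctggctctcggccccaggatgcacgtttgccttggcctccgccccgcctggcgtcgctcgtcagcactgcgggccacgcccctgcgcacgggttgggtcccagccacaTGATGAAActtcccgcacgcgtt
Mthfd1l, chr10:3972825-3973074, plus strand: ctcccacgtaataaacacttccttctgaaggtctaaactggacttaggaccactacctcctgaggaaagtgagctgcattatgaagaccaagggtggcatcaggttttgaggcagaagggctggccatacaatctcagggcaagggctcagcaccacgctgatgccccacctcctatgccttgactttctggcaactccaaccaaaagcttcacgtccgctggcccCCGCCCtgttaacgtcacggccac
Shmt1, chr11:60811266-60811515, minus strand: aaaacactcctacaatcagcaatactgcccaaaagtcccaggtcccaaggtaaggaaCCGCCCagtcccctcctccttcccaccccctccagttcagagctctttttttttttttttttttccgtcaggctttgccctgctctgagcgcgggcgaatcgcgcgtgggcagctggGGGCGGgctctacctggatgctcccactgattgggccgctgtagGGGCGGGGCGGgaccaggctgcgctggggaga
TGATGNAA, a core of the amino acid response element, occurs in 3.45% of the 32851 promoter windows of this length. It matched once in Asns, at bases -23 to -16, once in Chac1, a gene read further below, and in none of the 8 members. CCAAT, the CCAAT box, occurs in 33.8% of the windows and matched 3 times in Mthfd2, starting at -96, -47 and -22. Among the other members it matched 2 times in Aldh1l1 and 1 time each in Mthfd1 and Shmt1, where it is not marked. GGGCGG, the GC box, occurs in 32.7% and matched 4 times in Shmt1, of which a pair overlaps at 1 base, and once in Mthfd1l. It also matched 1 time each in Tyms, Mthfd1 and Aldh1l1 and, unmarked above, in Asns. A match is a string of letters, and a missing match says only that the letters are not in this window.

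Levels are given as log2 of the processed spot intensity minus the 75th percentile of the same array, so a negative value lies under that percentile, and the level of a probe is comparable between livers but not with that of another probe. A gene with 2 probes is read on the brighter one unless stated. Differences come from limma with 1 model of the 4 groups, and a member is called changed at an adjusted p below 0.05 over all 35739 kept probes, with no requirement of fold.

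Across the 4 comparisons of groups the members gave 32 differences, of which 4 were called higher, 4 lower and 24 neither. The 4 higher calls fell on the mitochondrial enzymes Mthfd1l and Mthfd2 (12 differences over 3 genes), and the 4 lower calls on the non-mitochondrial enzymes Shmt1, Mthfd1 and Aldh1l1 (20 differences over 5 genes). This split was noticed after the values were seen and was not tested, and several of its calls share livers. It is read on the brighter probes. On its dimmer probe Shmt1 was called higher in LFD MTX50 vs LFD (log2 difference 0.53, limma adjusted p = 0.026), which departs from the split. Shmt2, Tyms and Ftcd were called in none of the 4 comparisons, where their differences stayed within 0.36 on the log2 scale. Read against all named genes, HFD vs LFD called 1 member higher and 1 lower of 8, where 18% of genes were called higher and 10.4% lower. HFD MTX50 vs HFD called 1 higher and 1 lower, against 4.83% and 6.13% of genes. The 2148 genes behind these shares became 300 without HFD mouse 3, 282 without HFD mouse 4, 1091 without HFD mouse 2 and 1100 without HFD MTX50 mouse 5, and 0 by limma with only these groups in the model (4951 at an unadjusted p below 0.05). LFD MTX50 vs LFD called 1 higher and 0 lower by limma (also 0 lower at an unadjusted p below 0.05), against 17.6% and 10.5%. HFD MTX50 vs LFD MTX50 called 1 higher and 2 lower, against 7.37% and 8.75%. The members' median log2 difference was -0.18, -0.15, -0.03 and -0.20 in these 4 comparisons, and that of all genes tested 0.08, -0.04, 0.10 and -0.06.

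**Figure D1:**
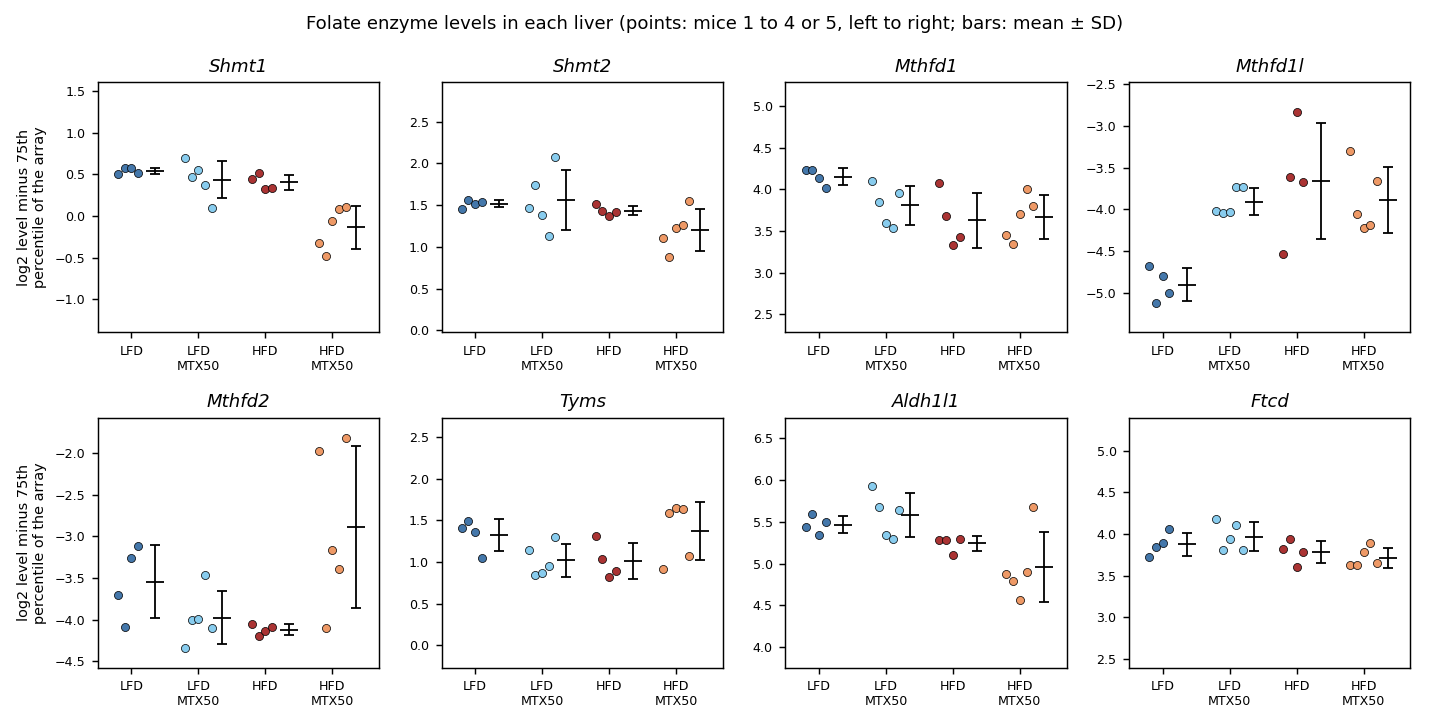
Levels of the 8 enzymes in each liver. The vertical axes give the log2 level minus the array's 75th percentile (each panel spans 3 log2 units), points are livers and bars are mean ± SD (n = 4 or 5). Mthfd1l lies lowest in the LFD livers (-5.13 to -4.68), and 2 HFD MTX50 livers hold the highest Mthfd2 levels (-1.97 and -1.82).

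The arrays lie on 6 slides that largely follow the groups: 4 LFD livers on one, the LFD MTX50 livers on a pair of their own, and a single slide that HFD MTX50 mice 1 and 2 shared with mice 3 and 4 of HFD. For every comparison that involves LFD or LFD MTX50, group and slide therefore cannot be told apart. Within HFD MTX50 vs HFD the shared slide gives a difference of 2 against 2 livers, printed below as the shared-slide difference. The share of probes well above background ran from 83.9 to 90.6% across the 18 arrays. The livers carried their label: all 11 hepatocyte markers were well above background on all 18 arrays, with a log2 level of Alb between 7.74 and 8.46.

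Shmt1, the cytosolic serine hydroxymethyltransferase, was lower in the treated HFD livers than in any other group mean. Its log2 levels were 0.51, 0.57, 0.58 and 0.51 in LFD and 0.44, 0.52, 0.32 and 0.33 in HFD. In LFD MTX50 they were 0.69, 0.47, 0.55, 0.37 and 0.10, and in HFD MTX50 -0.32, -0.48, -0.05, 0.08 and 0.10. All 5 HFD MTX50 livers lay below all 4 HFD livers, while 1 LFD MTX50 liver reached down to the HFD MTX50 range.

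Against HFD, Shmt1 was 1.45-fold lower in HFD MTX50 (log2 difference -0.54, SE 0.13, limma adjusted p = 0.021). The shared-slide difference was -0.73 and that of the other slides -0.44. With slide as a fixed block the adjusted p was 0.070, and with slide as a random block it was 0.013. The call was also lost without HFD mouse 2, 3 or 4 (difference -0.57 to -0.50, adjusted p 0.051 to 0.062). Against LFD MTX50, Shmt1 was 1.49-fold lower in HFD MTX50 (log2 difference -0.57, SE 0.12, adjusted p = 0.0098), which became an adjusted p of 0.090 with slide as a random block. In LFD MTX50 vs LFD the difference of this probe was -0.10, with a 95% interval of -0.38 to 0.17.

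The dimmer probe of Shmt1 ran otherwise in part. Its log2 levels were -0.65, -0.62, -0.68 and -0.53 in LFD and -0.10, -0.02, 0.22, 0.06 and -0.60 in LFD MTX50. They were -0.67, -0.55, -0.33 and -0.24 in HFD, and -0.27, -0.50, -0.62, -0.85 and -1.07 in HFD MTX50. On this probe the LFD MTX50 livers stood above LFD, apart from 1 liver within the LFD range, and HFD MTX50 overlapped HFD.

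LFD MTX50 was called higher than LFD on the dimmer probe (log2 difference 0.53, SE 0.17, adjusted p = 0.026), whereas HFD MTX50 vs HFD was not called (-0.21, 95% interval -0.56 to 0.14, adjusted p = 0.39). Both probes gave HFD MTX50 as lower than LFD MTX50 by 0.57 on the log2 scale (adjusted p = 0.024 on the dimmer). Across the 18 arrays the levels of both probes correlated with a Pearson r of 0.23, and the promoter above does not tell which transcripts each probe reads. The treatment effect on HFD minus that on LFD was -0.43 on the brighter probe (adjusted p = 0.085) and -0.75 on the dimmer (adjusted p = 0.029).

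**Figure D2:**
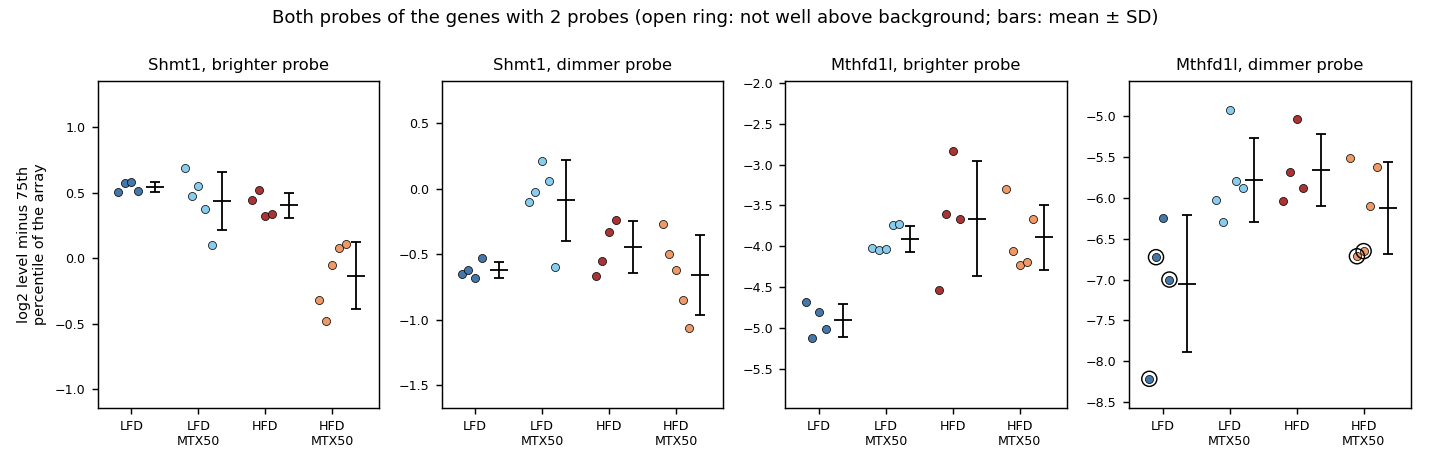
Both probes of Shmt1 and Mthfd1l in each liver. The vertical axes give the log2 level minus the array's 75th percentile, points are livers, bars are mean ± SD (n = 4 or 5), and an open ring marks a spot not well above background. The Shmt1 probes differ in LFD MTX50, whose mean is 0.44 on the brighter and -0.09 on the dimmer probe beside LFD means of 0.54 and -0.62, while both Mthfd1l probes are lowest in LFD.

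Shmt2, the mitochondrial partner and the main entry of serine carbon in many cells, was called in no comparison. Its log2 levels were tight in the untreated livers, 1.45, 1.56, 1.52 and 1.54 in LFD and 1.51, 1.43, 1.37 and 1.42 in HFD. They were wider after treatment, 1.47, 1.74, 1.39, 1.13 and 2.07 in LFD MTX50 and 1.10, 0.87, 1.22, 1.26 and 1.56 in HFD MTX50. The SD was 0.05 without and 0.36 with methotrexate on LFD, and 0.06 and 0.25 on HFD.

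HFD MTX50 vs LFD MTX50 gave the largest of the Shmt2 differences, -0.36 with a 95% interval of -0.67 to -0.04 (adjusted p = 0.10). Without LFD MTX50 mouse 4 this difference was -0.46 and passed (adjusted p = 0.041). HFD MTX50 vs HFD gave -0.23 (95% interval -0.56 to 0.10), with a shared-slide difference of -0.41, and LFD MTX50 vs LFD gave 0.04 (-0.29 to 0.37).

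Mthfd1, the cytosolic protein with 3 enzyme activities that makes and uses formyl folate, was lower in HFD than in LFD. Liver by liver, its log2 level was 4.23, 4.23, 4.14 and 4.02 in LFD and 4.07, 3.68, 3.34 and 3.43 in HFD. Of the HFD livers, 1 lay within the LFD range and 3 below it. In LFD MTX50 the levels were 4.10, 3.85, 3.59, 3.54 and 3.96, and in HFD MTX50 3.46, 3.35, 3.71, 4.01 and 3.80.

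HFD was 1.44-fold lower than LFD in Mthfd1 (log2 difference -0.52, SE 0.17, adjusted p = 0.034). Leaving out LFD mouse 1, 2 or 3 or HFD mouse 2, 3 or 4 ended the call (difference -0.54 to -0.43, adjusted p 0.053 to 0.12), as did slide as a random block (-0.48, adjusted p = 0.15), quantile normalization (-0.33, adjusted p = 0.11), the value table (-0.44, adjusted p = 0.082) and the methods' t-test (adjusted p = 0.059). Methotrexate gave a difference of 0.04 on HFD, with a 95% interval of -0.31 to 0.38, and -0.35 on LFD, with an interval of -0.69 to 0.00 (adjusted p = 0.12). These treatment effects differed by 0.38 (adjusted p = 0.22).

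Mthfd1l, the mitochondrial enzyme that releases formate from formyl folate, was the member with the lowest adjusted p. On the log2 scale the livers read -4.68, -5.13, -4.81 and -5.01 in LFD and -4.54, -3.61, -2.83 and -3.67 in HFD. In LFD MTX50 they were -4.02, -4.04, -4.03, -3.74 and -3.73, and in HFD MTX50 -3.30, -4.06, -4.23, -4.19 and -3.67. Every liver of the other 3 groups lay above every LFD liver, and those 3 groups overlapped each other.

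HFD was 2.37-fold higher than LFD in Mthfd1l (log2 difference 1.24, SE 0.27, adjusted p = 0.0064), and LFD MTX50 was 1.99-fold higher than LFD (0.99, SE 0.26, adjusted p = 0.012). Both comparisons share the 4 LFD livers, which filled a slide of their own. Both calls held without any single array, with differences of 0.97 to 1.54 and 0.92 to 1.07. With slide as a random block the differences were 1.22 and 1.02, with adjusted p of 0.062 and 0.10. Quantile normalization ended the call in LFD MTX50 vs LFD (0.65, adjusted p = 0.063). On HFD, methotrexate gave -0.23 with a 95% interval of -0.77 to 0.31, a shared-slide difference of -0.43 and 0.05 on the other slides.

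The treatment effect on Mthfd1l was thus smaller on HFD than on LFD by 1.22 (SE 0.36, adjusted p = 0.023), where 26.8% of all named genes had unequal effects. With quantile normalization it was -0.80 and no longer called (adjusted p = 0.10). The dimmer probe of Mthfd1l was well above background in 1 of 4 LFD livers, 5 of 5 LFD MTX50, 4 of 4 HFD and 3 of 5 HFD MTX50 livers. It was called higher in HFD (log2 difference 1.39, adjusted p = 0.018) and in LFD MTX50 (1.26, adjusted p = 0.021) than in LFD, differences that rest on LFD spots near background. The levels of both probes correlated across the 18 arrays with a Pearson r of 0.70.

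Mthfd2, the mitochondrial dehydrogenase and cyclohydrolase of growing cells, is scarce in adult liver. Its log2 levels were -3.71, -4.09, -3.27 and -3.12 in LFD and -4.05, -4.20, -4.14 and -4.09 in HFD. In LFD MTX50 they were -4.33, -4.0, -3.99, -3.46 and -4.10, and in HFD MTX50 -1.97, -4.10, -3.16, -3.39 and -1.82. HFD MTX50 mice 1 and 5 stood above all other livers, mice 3 and 4 lay above the HFD range but inside the LFD range, and mouse 2 lay inside the HFD range. The probe was well above background on all 18 arrays, at processed intensities of 79.9 to 576.

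HFD MTX50 was 2.34-fold higher than HFD in Mthfd2 (log2 difference 1.23, SE 0.36, adjusted p = 0.040). The shared-slide difference was 1.08 and that of the other slides 1.33. The call was lost with slide as a random block (1.18, adjusted p = 0.078) or as a fixed block (adjusted p = 0.40). It was also lost without HFD MTX50 mouse 1 (1.00, adjusted p = 0.062) or mouse 5 (0.96, adjusted p = 0.090), and without HFD mouse 2, 3 or 4 (1.20 to 1.24). Leaving out LFD MTX50 mouse 2, which is in neither group but in the shared model, also ended the call (adjusted p = 0.051). HFD MTX50 was 2.13-fold higher than LFD MTX50 (1.09, SE 0.34, adjusted p = 0.040), a call that 9 of the 18 single omissions ended (0.82 to 1.21, adjusted p 0.051 to 0.090).

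On LFD, methotrexate gave a Mthfd2 difference of -0.43 (95% interval -1.20 to 0.34). The treatment effect on HFD exceeded that on LFD by 1.66 (SE 0.51, adjusted p = 0.027), and by 1.52 to 1.65 at adjusted p of 0.0502 to 0.053 without LFD mouse 3, LFD mouse 4 or HFD mouse 3. The SD over livers was 0.07 in HFD and 0.97 in HFD MTX50, the widest ratio among the members.

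**Figure D3:**
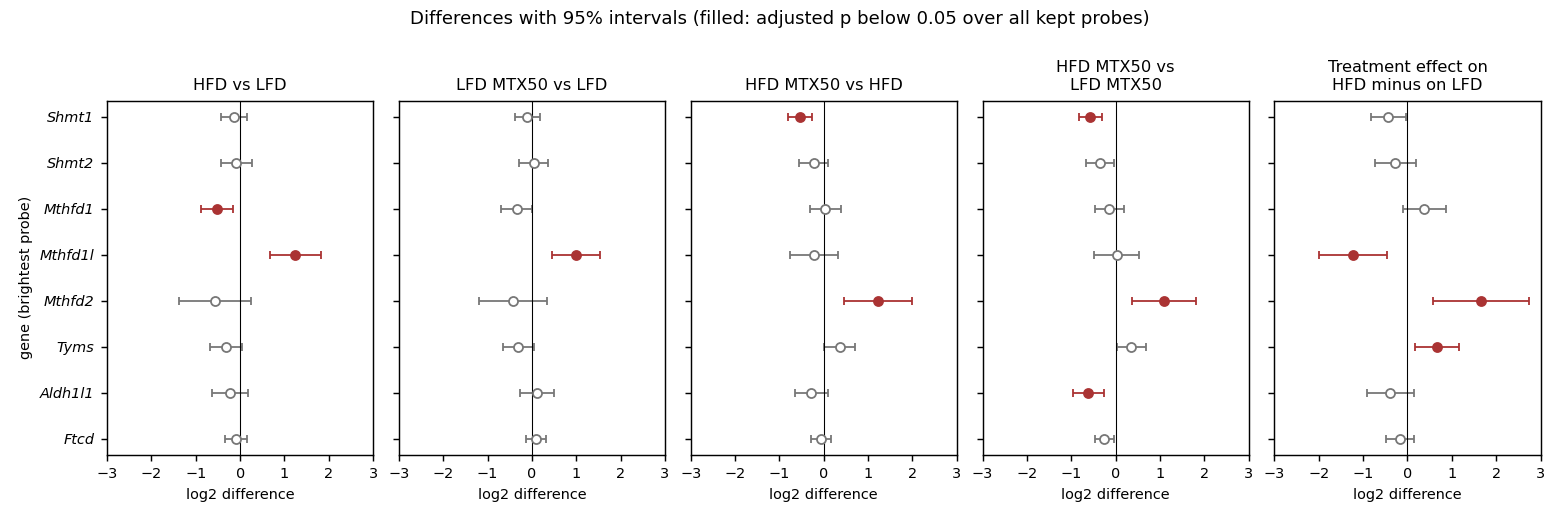
Log2 differences of the 8 enzymes with 95% intervals in 4 comparisons of groups and for the treatment effect on HFD minus that on LFD. The horizontal axes give the log2 difference, points are limma estimates on the brightest probe, and filled points have an adjusted p below 0.05. Filled points lie at 1.24 and 0.99 for Mthfd1l, 1.23 and 1.09 for Mthfd2, -0.54 and -0.57 for Shmt1, -0.52 for Mthfd1 and -0.62 for Aldh1l1, and in the last panel at 1.66, 0.67 and -1.22 for Mthfd2, Tyms and Mthfd1l.

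Tyms, thymidylate synthase, which makes the DNA precursor thymidylate from methylene folate, had unequal methotrexate effects on the 2 diets, with neither effect called alone. Its log2 levels were 1.41, 1.49, 1.36 and 1.05 in LFD and 1.15, 0.84, 0.87, 0.95 and 1.30 in LFD MTX50. They were 1.31, 1.03, 0.81 and 0.89 in HFD and 0.92, 1.59, 1.65, 1.63 and 1.08 in HFD MTX50. HFD MTX50 mice 2, 3 and 4 stood above every other liver, and mice 1 and 5, those with the highest Mthfd2, lay within the HFD range.

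Methotrexate gave a Tyms difference of 0.36 on HFD (95% interval 0.01 to 0.71, adjusted p = 0.15), with a shared-slide difference of 0.41, and of -0.31 on LFD (-0.66 to 0.04, adjusted p = 0.16). The difference between these effects was 0.67 (SE 0.23, adjusted p = 0.043). It fell short of the threshold without any 1 of 12 arrays (0.60 to 0.68, adjusted p 0.057 to 0.096) with slide as a random block (0.64, adjusted p = 0.16) and with quantile normalization (0.57, adjusted p = 0.076). HFD MTX50 vs LFD MTX50 gave 0.35 (adjusted p = 0.12). Without HFD MTX50 mouse 1, the differences from HFD and from LFD MTX50 were 0.48 and 0.47 and both passed (adjusted p = 0.0495 and 0.033).

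Aldh1l1, which oxidises formyl folate to carbon dioxide and free tetrahydrofolate, was lower in HFD MTX50 than in LFD MTX50. The log2 levels by liver were 5.44, 5.59, 5.35 and 5.49 in LFD and 5.93, 5.68, 5.34, 5.29 and 5.65 in LFD MTX50. They were 5.28, 5.28, 5.11 and 5.29 in HFD and 4.88, 4.79, 4.57, 4.90 and 5.68 in HFD MTX50. Of the HFD MTX50 livers, 4 lay below every other liver, and mouse 5 lay among the LFD MTX50 livers.

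HFD MTX50 was 1.53-fold lower than LFD MTX50 in Aldh1l1 (log2 difference -0.62, SE 0.17, adjusted p = 0.024). Without LFD MTX50 mouse 1 or 2 or HFD MTX50 mouse 3 or 4 it missed the threshold (-0.60 to -0.52, adjusted p 0.054 to 0.062), and with slide as a random block the adjusted p was 0.15. HFD vs LFD did not overlap, but the difference of -0.23 was not called (95% interval -0.62 to 0.17, adjusted p = 0.37). Methotrexate gave -0.28 on HFD (-0.66 to 0.10, shared-slide difference -0.37), which without HFD MTX50 mouse 5 became -0.46 (adjusted p = 0.049), and 0.11 on LFD (-0.27 to 0.49). With quantile normalization the effect on HFD was -0.55 (adjusted p = 0.037), and that on HFD minus that on LFD -0.71 (adjusted p = 0.040).

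Ftcd, which moves the formimino group of histidine breakdown to folate, was the steadiest member. The livers had log2 levels of 3.73, 3.84, 3.89 and 4.06 in LFD and 4.18, 3.81, 3.94, 4.11 and 3.81 in LFD MTX50. They were 3.82, 3.94, 3.61 and 3.78 in HFD and 3.62, 3.63, 3.79, 3.89 and 3.65 in HFD MTX50. The 18 livers spanned a 1.49-fold range, beside 5.71-fold for Mthfd2, and all 4 groups overlapped. The largest difference was HFD MTX50 vs LFD MTX50, -0.25 with a 95% interval of -0.47 to -0.04 (adjusted p = 0.088), and HFD MTX50 vs HFD gave -0.07 (-0.30 to 0.15).

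Ordered by their group means, neighbouring groups overlapped in 21 of 24 pairs over the 8 members. The share over all genes was not counted, so this number is no result about the members. The pairs without overlap were HFD above HFD MTX50 in Shmt1, LFD MTX50 above LFD in Mthfd1l, and LFD above HFD in Aldh1l1. The dimmer probe of Shmt1 did overlap there. In Mthfd1l HFD also lay above LFD without overlap, but these groups were not neighbours. HFD MTX50 held the lowest mean in Shmt1, Shmt2, Aldh1l1 and Ftcd, and the highest in Tyms and Mthfd2. LFD held the highest mean in Shmt1 and Mthfd1 and the lowest in Mthfd1l. The SD over livers was larger with methotrexate than without it in 6 of 8 members on LFD and in 5 of 8 on HFD, which was not tested.

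The other folate enzymes gave few calls. HFD MTX50 vs LFD MTX50 called 7.37% of all genes higher and 8.75% lower. Of 10 kept genes of this list, 3 were called higher there and 0 lower by limma (0 also unadjusted at 0.05). They were Mtr, methionine synthase (log2 difference 0.75, adjusted p = 0.034), Aldh1l2, the mitochondrial counterpart of Aldh1l1 (0.72, adjusted p = 0.013), and Mthfsl (0.72, adjusted p = 0.026). Mthfs, which returns formyl folate to the pool, was called lower in HFD vs LFD (-0.26) and higher in HFD MTX50 vs HFD (0.28), and Qdpr lower in LFD MTX50 vs LFD (-0.80). The treatment effects on the 2 diets differed in Mtr alone of the 10 genes, by 1.02 (adjusted p = 0.035), beside 26.8% of all genes. The list's median log2 difference ran from -0.21 to 0.14 over the 4 comparisons.

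Of 11 genes of glycine cleavage and of choline, betaine and sarcosine breakdown, 1 was called lower in HFD MTX50 vs LFD MTX50. Beside this, 8.75% of all genes were called lower. The gene called was Gnmt, the glycine methyltransferase that binds methyl folate (-0.98, adjusted p = 0.0025). Aldh7a1 was called lower in LFD MTX50 vs LFD (-0.53, adjusted p = 0.019). In HFD vs LFD and HFD MTX50 vs HFD, 0 genes of this list were called by limma (0 and 2 at an unadjusted p below 0.05). Psat1, an aminotransferase of serine synthesis, was higher in HFD than in LFD (0.75, adjusted p = 0.0065) and lower in HFD MTX50 than in HFD (-0.62, adjusted p = 0.023). Psph, the last enzyme of that pathway, was lower in HFD than in LFD (-0.39, adjusted p = 0.036).

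Upstream of Ftcd, the histidine enzymes Hal (-0.76, adjusted p = 0.027) and Uroc1 (-0.37, adjusted p = 0.015) were lower in HFD MTX50 than in LFD MTX50. This is 2 of 3 genes, beside 8.75% of all genes called lower. With slide as a random block 18 of 19598 genes were called in this comparison. The alternatives were not read for single genes of the lists. Uroc1 was also lower in HFD MTX50 than in HFD (-0.33, adjusted p = 0.034), and Amdhd1 was lower in HFD than in LFD (-0.58, adjusted p = 0.036). The list of 11 genes of thymidylate and deoxynucleotide supply beside Tyms gave 1 higher and 2 lower calls in HFD vs LFD. Of all genes, 18% were called higher and 10.4% lower there. In LFD MTX50 vs LFD the list gave 2 higher and 3 lower, against 17.6% and 10.5% of all genes. HFD MTX50 vs HFD gave 0 by limma (5 at an unadjusted p below 0.05), against 4.83% and 6.13%. HFD MTX50 vs LFD MTX50 gave 2 of each, against 7.37% and 8.75%. Dctd, deoxycytidylate deaminase, was higher in HFD (0.94, adjusted p = 0.0025) and in LFD MTX50 (0.43, adjusted p = 0.028) than in LFD. Dut, the dUTPase that supplies dUMP to Tyms, was lower in LFD MTX50 than in LFD (-0.71, adjusted p = 0.029). The treatment effect on HFD minus that on LFD was called higher in 3 and lower in 2 of the 11 genes. Beside this, 26.8% of all genes were called in either direction. Dut was 1 of the 3, with an effect on HFD higher by 1.05 (adjusted p = 0.026).

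Mthfd2 is a known target of ATF4, the transcription factor of the amino acid response, so the list of ATF4 target genes was read beside it. Of 14 kept genes, 1 was called higher in HFD MTX50 vs HFD, beside 4.83% of all genes, and this was Asns (log2 difference 1.27, SE 0.28, adjusted p = 0.015). Asns had log2 levels of -2.52, -2.14, -2.60 and -2.55 in HFD and -0.09, -1.23, -1.82, -1.99 and -0.76 in HFD MTX50. The groups did not overlap, and mice 1 and 5 were the highest in Asns as in Mthfd2. Asns lay at -2.25, -2.81, -2.61 and -2.59 in LFD and -2.02, -1.99, -1.72, -1.80 and -1.86 in LFD MTX50, a difference of 0.69 that was not called (adjusted p = 0.073).

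HFD MTX50 mouse 1 also stood apart in Trib3 (log2 level 3.24, other livers at most 1.49) and Ddit3 (0.61, others at most -1.49), a pair chosen for mention after the values were seen and called in no comparison. Mouse 5 did not share this (Trib3 -0.16 and Ddit3 -2.36). Atf4 itself was lower in HFD than in LFD (-0.46, adjusted p = 0.019). Its log2 levels were 3.83, 3.91, 3.66 and 3.78 in HFD and 4.42, 4.02, 4.14, 3.87 and 4.41 in HFD MTX50. That difference was not called. Chac1, which breaks down glutathione, was higher in HFD (1.08, adjusted p = 0.0069) and in LFD MTX50 (1.40, adjusted p = 0.0014) than in LFD. Slc7a11, a cystine transporter, was higher in HFD MTX50 than in LFD MTX50 (1.19, adjusted p = 0.020). Its log2 levels were low, -6.11, -5.82, -6.63, -6.94 and -5.01 in LFD MTX50 and -4.38, -5.11, -4.99, -4.73 and -5.32 in HFD MTX50. The dimmer Mthfd1l probe was not well above background at levels of -6.71 and -6.65, so this difference rests in part on dim spots. The median difference of the ATF4 list was 0.07 for diet alone, 0.33 for methotrexate on HFD, 0.13 for methotrexate on LFD and 0.24 for diet under methotrexate, beside 0.08, -0.04, 0.10 and -0.06 over all genes tested.

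**Figure D4:**
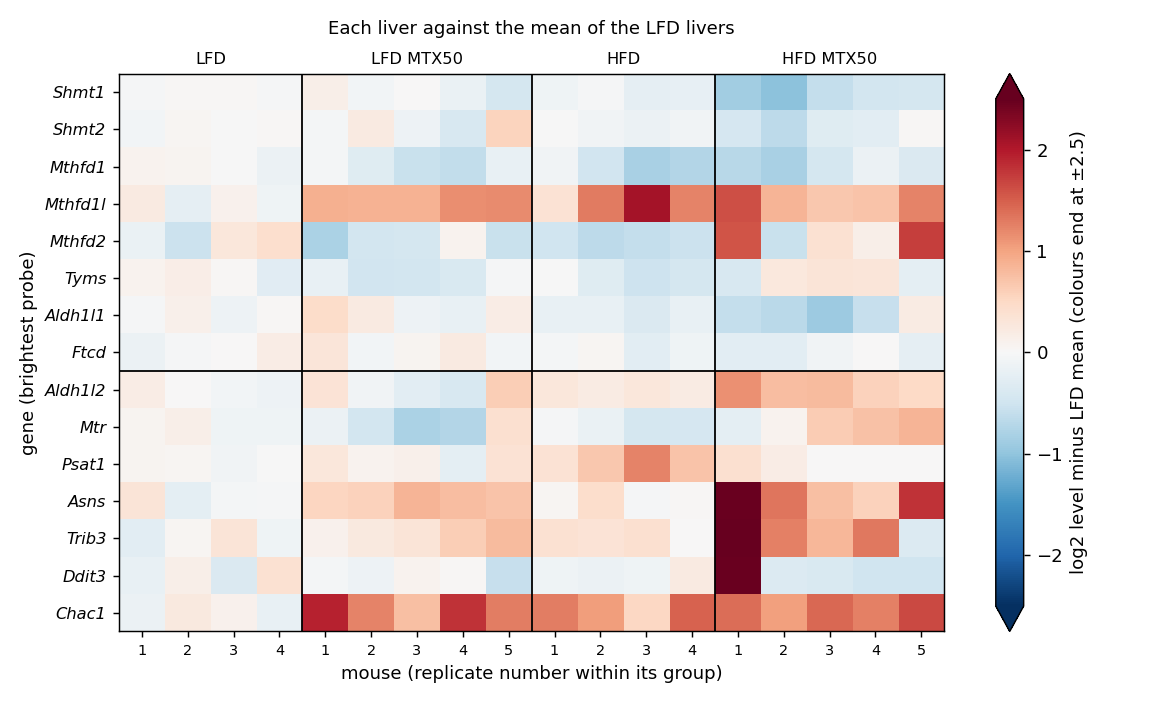
Log2 level of each gene in each of the 18 livers minus its mean over the 4 LFD livers, from blue (lower) to red (higher), with colours ending at ±2.5. Rows above the line are the 8 enzymes and rows below it other folate, serine and ATF4 list genes. Mthfd1l is raised in the LFD MTX50, HFD and HFD MTX50 livers, and HFD MTX50 mice 1 and 5 are raised in both Mthfd2 and Asns.

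Other cell types in bulk liver RNA were read through marker lists, and there fewer cells of a type and less RNA per cell cannot be told apart. In HFD MTX50 vs HFD, where Mthfd2 rose and Shmt1 fell, 0 of 13 markers of dividing cells and 0 of 13 leukocyte markers were called by limma (0 and 6 at an unadjusted p below 0.05), and 1 of 9 erythroid markers was called higher. That marker, Epb42, was well above background in 0 of 4 HFD and 4 of 5 HFD MTX50 livers. Of 12 endothelial, stellate and bile duct markers 2 were lower, and of 6 adipocyte markers 1 was higher and 1 lower. Over all genes 4.83% were called higher and 6.13% lower in HFD MTX50 vs HFD. The log2 of the summed leukocyte markers was 6.16 to 6.57 in HFD and 6.29, 6.51, 6.73, 7.06 and 7.31 in HFD MTX50. The highest sum was that of mouse 5, and mouse 1, also high in Mthfd2, had the lowest. The summed markers of dividing cells ran from 3.14 to 3.50 in HFD and from 3.40 to 4.07 in HFD MTX50, with mouse 5 again the highest. Bub1, of the list of dividing cells, was not kept as too dim.

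In LFD MTX50 vs LFD, where Mthfd1l rose, 17.6% of all genes were called higher and 10.5% lower. There 2 markers of dividing cells were called higher and 1 lower of 13, and 2 leukocyte markers higher and 3 lower of 13. Of 12 endothelial, stellate and bile duct markers 1 was higher, and of 11 hepatocyte markers 1 was higher and 1 lower. Of 9 erythroid markers 1 was higher and 2 lower, and of 6 adipocyte markers 3 were higher and 1 lower, with a median difference of 0.43. The summed adipocyte markers, which include Car3, a gene hepatocytes also use, lay between 5.89 and 6.06 in LFD but between 0.90 and 4.53 in LFD MTX50. In HFD they lay between 6.17 and 6.22, and in HFD MTX50 between 2.78 and 5.81. HFD vs LFD called 18% of all genes higher and 10.4% lower. In that comparison 3 of 6 adipocyte markers and 2 of 13 of dividing cells were called higher. So were 1 of 13 leukocyte, 1 of 9 erythroid and 1 of 12 endothelial, stellate and bile duct markers. Of 11 hepatocyte markers 1 was lower. In HFD MTX50 vs LFD MTX50, where Aldh1l1 and Shmt1 fell, 3 of 11 hepatocyte, 2 of 12 endothelial, stellate and bile duct and 1 of 6 adipocyte markers were lower. In the same comparison 4 of 13 markers of dividing cells, 2 of 13 leukocyte and 2 of 9 erythroid markers were higher. It called 7.37% of all genes higher and 8.75% lower. The part of these markers in the members' changes was not tested.

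The genes whose levels ran most like each member's over the 18 arrays, among 19401 genes compared, are a description of arrays that share groups and slides. Tyms ran with Mdk (Pearson r 0.96) and Parp6 (0.95), and Shmt1 with Gsta3 (0.92) and Nipsnap1 (0.91). Mthfd1 ran with Acbd6 (0.91) and Sub1 (0.90), and Mthfd1l with Panx1 (0.94) and Dnajc5b (0.88). Aldh1l1 ran with Gnmt (0.88) and Ebp (0.87), and Mthfd2 with Atp11a (0.87) and Cybb (0.85). Shmt2 ran with Pop7 (0.83) and Rab27b (0.83), and Ftcd with 9030624G23Rik (0.82) and Gm14288 (0.80). Among the members themselves the correlation of levels was highest for Shmt2 and Aldh1l1 (0.72) and most negative for Mthfd1 and Mthfd1l (-0.77).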

How the data were processed

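Total liver RNA of 18 mice was hybridised to one-colour Agilent arrays, 1 per mouse. The authors used, per the labels and file headers, Agilent Feature Extraction 10.7.3.1, which subtracted the background and detrended each array. The deposited spot intensities are linear and were not normalized from array to array. The value table of the series holds the background-subtracted intensities, rounded (100% of cells within 0.6%). These are not the processed intensities read here, and the table served as an alternative source.

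Here log2 of the processed intensity was taken and the array's 75th percentile (an intensity of 1203 to 2263) subtracted. Outlier spots were dropped (124 to 294 per array), 0 were saturated, and repeated spots entered as their mean. Probes stayed in if well above background on at least 4 of 18 arrays. RefSeq accessions named 28025 probes (71.1%). A gene is read on its brightest kept probe. limma 3.58.1 (R 4.3.3) fitted the 4 groups in 1 model with empirical Bayes, and p-values were adjusted by the Benjamini-Hochberg method over all 35739 kept probes, with intervals at 95%. The number of arrays limits the precision. The fit was tested on simulated data.

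Named are all 8 members with every probe, up to 5 called genes of each list by size, and for each member the 2 genes most correlated with it. Members and lists were chosen with earlier results of these data known, and some genes of the lists are not reported here. The alternatives were normexp background (offset 50, on the median signal), quantile normalization, a median scaling on probes above background everywhere, the value table, no filter or a filter on all arrays, only the groups compared, the methods' t-test (Student's, named there for other measurements), blocks for slide (random or fixed) and for replicate number, averaging a gene's probes, and leaving out each array. Outside the replicate block, arrays of equal number were treated as unpaired.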

Additional observations from a re-analysis of the deposited data

Results flagged for a closer look

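Of 32 sets of 4 or 5 livers (8 members in 4 groups), 1 held a liver far from the others, a rate that chance alone would give about once in 20 sets. This was Aldh1l1 in HFD mouse 3, at a log2 level of 5.11 with the nearest liver at 5.28, so that the gap made up 0.951 of a range that was only 0.18 in all.

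The effect of methotrexate differed between the diets in 3 of 8 members by limma, taken as the effect on HFD minus that on LFD, beside 26.8% of all named genes. The difference was 0.67 for Tyms (adjusted p = 0.043), 1.66 for Mthfd2 (adjusted p = 0.027) and -1.22 for Mthfd1l (adjusted p = 0.023). With slide as a random block 0 of the 3 passed by limma (4 of 8 members at an unadjusted p below 0.05).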

How the results depend on the processing

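No called difference of a member changed sign under any alternative or single omission. Besides leaving out arrays, 383 of 432 values of members stayed on their side of the threshold, 43 called ones missed it and 6 passed it newly, and 22 uncalled ones changed sign. The number of members called was 2 for diet alone (HFD vs LFD), 2 for methotrexate on HFD, 1 for methotrexate on LFD, 3 for diet under methotrexate, and 3 for unequal treatment effects. With normexp background all 5 counts were 0 by limma (1, 1, 1, 3 and 0 at an unadjusted p below 0.05), where 2, 0, 339, 1 and 0 of 19598 genes were called in all (1071 and 1353 unadjusted for the counts of 0), a setting that moved the median log2 difference of all genes from 0.08, -0.04, 0.10 and -0.06 to 0.38, 0.39, 0.47 and 0.34. With slide as a random block (correlation 0.262) they were 0, 1, 0, 0 and 0 (2, 2, 1, 4 and 4 unadjusted), with 383, 1858, 340, 18 and 1249 of all genes called. With quantile normalization HFD vs LFD gave 1 (Mthfd1 was lost) and LFD MTX50 vs LFD 0 (1 unadjusted), and with the value table HFD vs LFD and HFD MTX50 vs HFD each gave 1. With only the groups compared, and with the methods' t-test, HFD MTX50 vs HFD gave 0 (2 unadjusted) and HFD MTX50 vs LFD MTX50 gave 0 (4 unadjusted), and with slide as a fixed block HFD MTX50 vs HFD gave 0 (2 unadjusted). Of all genes, these settings called 0 in HFD MTX50 vs HFD (3945 to 4951 unadjusted, beside 2148 with all groups in the model), and in HFD MTX50 vs LFD MTX50 9 with only the groups compared and 113 with the t-test (3158), so these counts of 0 are no result about the members. Quantile normalization also changed the split of all genes, from 3522 higher and 2033 lower to 1799 and 1993 in HFD vs LFD, and from 3450 and 2053 to 1663 and 2005 in LFD MTX50 vs LFD. The cause was not tested in any of these.

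Leaving out each array in turn gave counts of 1 to 2, 0 to 2, 1 to 1, 1 to 4 and 1 to 4. HFD MTX50 vs HFD gave 0 without HFD mouse 2, 3 or 4 (2 unadjusted each).

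Same-numbered arrays of different groups showed little common deviation (25 pairs, r from -0.31 to 0.25, median -0.02, with 7 pairs over 0.1). Such correlations cannot settle whether the number pairs samples. With the replicate block HFD MTX50 vs HFD gave 0 (4 unadjusted), and the other counts were 2, 1, 3 and 2. Mthfd1l and Mthfd2 lie at low intensities, and the dimmer Mthfd1l probe at background in most LFD livers.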
